A study of Mus musculus with 16 samples.

Results

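The genes described here encode cytochrome P450 enzymes, carboxylesterases and glutathione transferases, the enzymes that break down pyrethroids and many other foreign compounds. They were taken from the deposited count table by gene symbol alone (Cyp with family, subfamily and member; Ces followed by a digit; Gst of the alpha, kappa, mu, omega, pi, theta or zeta class followed by a digit), which gave 135 of 24539 genes. Of these, 59 were P450 genes of families 1 to 3, 17 were P450 genes of family 4, 18 were P450 genes of higher families, 22 were glutathione transferase genes and 19 were carboxylesterase genes. RNA was sequenced from about 1000 laser-captured cells per embryo, picked as migrating GAD67-GFP+ cells in the cortical plate of CD1 mouse brain at embryonic day 14.5. All embryos were heterozygous GAD67-GFP+/- males by their labels, 1 per litter. The pieces cut from fixed sections can hold neighbouring cells as well. The 4 groups of 4 litters differed in what the dam received. Dams were gavaged daily with 10 mg/kg alpha-cypermethrin from gestational day 11 to 14 and restrained under bright light (cypermethrin stressed), gavaged with the insecticide alone (cypermethrin non-stressed), gavaged with corn oil and restrained (vehicle stressed), or gavaged with corn oil alone (vehicle non-stressed). Restraint took place in 3 sessions of 45 min on days 12 and 13 with a last round on day 14, and every dam received the last gavage 90 min before euthanasia.

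P450 enzymes are haem proteins that insert an oxygen atom into a substrate. Families 1 to 3 are known for drugs, pesticides and other foreign compounds, while family 4 acts mainly on fatty acids and the higher families mainly on sterols, steroids, vitamin D and retinoic acid. Carboxylesterases cut ester bonds, a step of pyrethroid breakdown, and glutathione transferases attach glutathione to reactive compounds. In adults these enzymes are most abundant in liver, and several P450 and transferase genes are induced by foreign compounds through the aryl hydrocarbon receptor (AHR), the pregnane X receptor and the constitutive androstane receptor, or through NRF2.

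Total counts per library ran from 2291283 to 4324129, and 12153 to 16536 genes had at least 1 count in a library. All 12 interneuron markers had counts, and their summed level ran from 1554 to 2533 CPM (counts scaled to a common library size with TMM, the unit of every level given here). Markers of other cells were present too. The summed level of 8 glutamatergic neuron markers, 3456 to 5531 CPM, lay above the whole range of the interneuron sum. Such sums depend on the genes chosen and are not scaled by gene length, so they do not rank cell types by RNA. The 6 Cajal-Retzius markers summed to 1679 to 3179 CPM. Of these Reln averaged 2263 CPM, Ebf3 111.5, Trp73 54.3, Lhx5 9.57, Calb2 8.38 and Lhx1 6.92. There were 167 to 858 CPM for 9 brain endothelial markers and 1389 to 4079 CPM for 12 pericyte and meningeal fibroblast markers, whereas 6 of 8 hepatocyte markers, Alb and Afp among them, were listed at 0. A 0 in the table does not show that a gene was silent. Of 77 core ribosomal protein genes, looked at after the data were seen, Rpl26 was listed at 0 and Rpl30, Rpl34 and Rps27 had 1 count each over the 16 libraries, against a median of 21782 counts for the 77. The globin genes Hba-a1, Hba-a2, Hbb-bs and Hbb-bt were also listed at 0, while Hbb-y averaged 92.9 CPM. In bulk material of this kind, fewer cells of a type and less RNA per cell cannot be told apart. The library labelled vehicle stressed replicate 1 went against its recorded sex, with 9521 counts of Xist and 1 count over 4 Y-linked genes. The other 15 libraries had at most 26 and at least 555. For several results that rest on the library labelled vehicle stressed replicate 1, the value without it is also given.

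The AHR targets of family 1 differed in how they were listed. Cyp1b1, an AHR target that oxidises oestrogens and retinol, had the most counts of all 135 genes, 3280 over the 16 libraries or 20.4% of the counts of the whole set. Cyp1a1 and Cyp1a2, classical AHR-induced enzymes of liver, were listed at 0 in all 16 libraries, cypermethrin libraries included. Their promoters are shown because these genes share a regulator and differ in the table. Each sequence is the 250 bases before the RefSeq transcription start (GRCm38.p6), and capitals mark GCGTG, the core of the AHR response element, found on either strand. The Cyp1b1 window is chr17:79715062-79715311 on the minus strand, and the Cyp1a1 window is chr9:57697363-57697612 on the plus strand.
Cyp1b1: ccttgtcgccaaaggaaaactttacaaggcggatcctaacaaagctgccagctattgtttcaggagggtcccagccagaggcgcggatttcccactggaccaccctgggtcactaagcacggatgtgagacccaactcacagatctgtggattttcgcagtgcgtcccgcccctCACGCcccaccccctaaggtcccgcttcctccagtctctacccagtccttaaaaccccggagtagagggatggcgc
Cyp1a1: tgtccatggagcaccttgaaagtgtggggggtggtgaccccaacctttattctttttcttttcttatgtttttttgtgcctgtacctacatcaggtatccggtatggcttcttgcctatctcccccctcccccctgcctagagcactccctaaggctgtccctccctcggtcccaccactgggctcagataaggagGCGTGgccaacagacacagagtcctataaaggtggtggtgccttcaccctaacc
Each window held 1 match, on the reverse strand for Cyp1b1 and on the printed strand for Cyp1a1, and the Cyp1a2 window held 0. GCGTG was found in 28.2% of 32851 promoter windows of this length, in 17.5% of the 126 windows matched to the enzyme genes and in 42.1% of the 19 windows of those tested below. Another motif, TGACNNNGC, the core of the antioxidant response element read by NRF2, was found on either strand in 10.2% of all windows, 4.76% of the enzyme windows and 10.5% of the windows of tested genes. Only these 2 motifs were searched, their matches can overlap, and a match is a description of letters that says nothing of binding.

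Of the 135 genes, 66 (48.9%) had at least 1 count in any library and 69 had none, while 76.3% of all 24539 genes had a count. The share with a count was 17 of 22 for glutathione transferases, 14 of 18 for P450 genes of families 5 and above and 10 of 17 for family 4, against 19 of 59 for families 1 to 3 and 6 of 19 for carboxylesterases. No count was found for any of the 7 Cyp3a genes (Cyp3a11, a target of the pregnane X receptor, among them), the 4 Cyp2a genes, the 5 Cyp4a genes or Cyp2e1, all known from liver. Of 15 Cyp2c genes 12 had no count, as did 7 of 9 Cyp2d genes and 3 of 5 Cyp2b genes. The other P450 genes without a count were Cyp2f2, Cyp2g1, Cyp2ab1, Cyp2j11, Cyp4f14, Cyp4f40, the steroid hydroxylases Cyp11b1, Cyp11b2 and Cyp21a1, and the retinoic acid hydroxylase Cyp26a1. Among glutathione transferases Gsta1, Gsta2, Gstm3, Gstp3 and Gstt4 had none. Cyp2b10, the classical target of the constitutive androstane receptor, had 3 counts, all in vehicle stressed replicate 2. With 56134080 counts in all, 3 counts are 0.0534 CPM over the 16 libraries, which limits the level of a gene at 0 (counting error only) provided that its reads were counted. Whether they were is unknown for the 69 genes at 0. Of 68 with annotated transcripts, 29 shared under 10% of their 50-base windows with other genes, Cyp1a1 (3.43%) and Cyp1a2 (4.79%) among them, and 5 shared over 50%, with Gsta1 at 90.5%. Rpl34 shared 7.78%, so little shared sequence does not show that a gene was counted.

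Carboxylesterases were the class with the fewest counts, 109 in all. Ces2g, a member of the Ces2 subfamily, had 45 of them, 33 in vehicle stressed replicate 4, 4 in vehicle stressed replicate 3 and 8 in vehicle non-stressed replicate 4, and none in the other 13 libraries. Ces1d, a Ces1 enzyme that hydrolyses lipid and drug esters, had 4 counts in cypermethrin non-stressed replicate 1 and 3 in vehicle stressed replicate 3, and the other 6 Ces1 genes had none. Both Ces3 genes and 5 of 8 Ces2 genes had none. Ces4a had 30 counts and Ces5a had 17, again in a few libraries. No carboxylesterase gene passed the filter on low counts described below, so edgeR gave no difference for this class. DESeq2, run without that filter, tested 64 of the enzyme genes and called 0. Counts this few do not show whether either exposure changed the class.

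**Figure D1:**
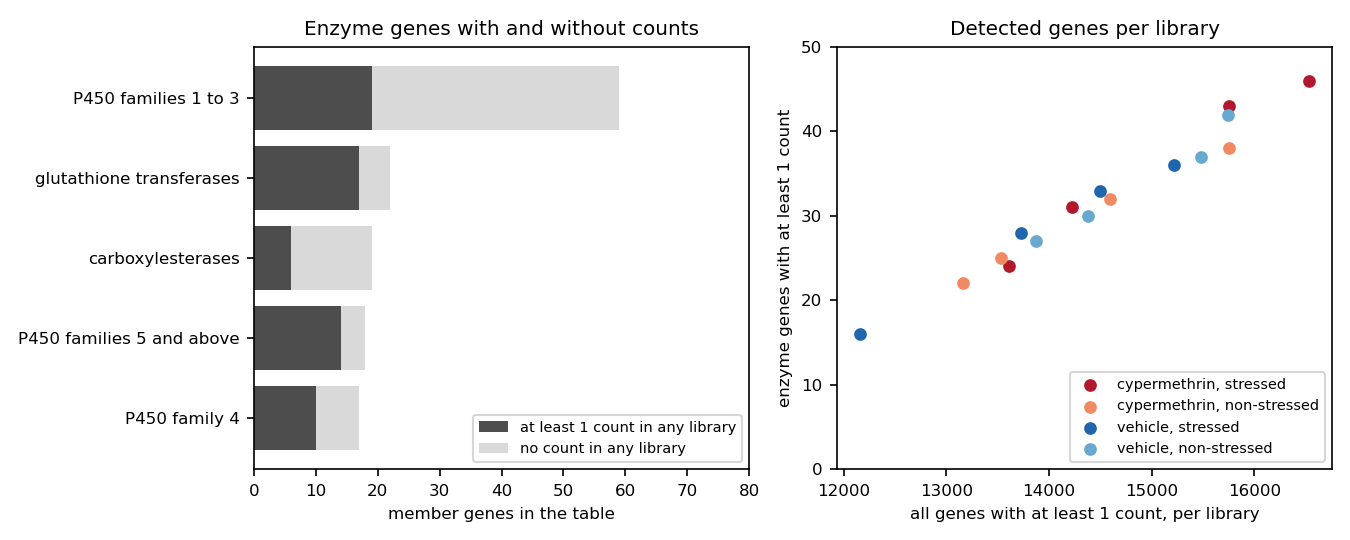
Left: number of enzyme genes with (dark) and without (light) any count in the 16 libraries, by class. Right: enzyme genes with at least 1 count in each library against all genes with at least 1 count in that library, coloured by group. The libraries run from 16 to 46 enzyme genes, and libraries with few genes in all lie at the low end for enzyme genes as well.

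The number of enzyme genes with a count ran from 16 to 46 per library. It was 24, 31, 46 and 43 in the cypermethrin stressed libraries, 38, 32, 25 and 22 in the cypermethrin non-stressed ones, 16, 33, 28 and 36 in the vehicle stressed ones and 27, 30, 42 and 37 in the vehicle non-stressed ones. The 4 groups overlap. The lowest number, 16, belonged to the library labelled vehicle stressed replicate 1, which also had the fewest genes of any kind, and the highest, 46, to cypermethrin stressed replicate 3, which had the most. Thinned to the smallest library total, the expected group means were 33.1 ± 8.79, 27.8 ± 7.13, 27.1 ± 7.97 and 31.8 ± 5.45 in the same order (SD, n = 4 each). Gsta3, an alpha class transferase, and Cyp4v3, a fatty acid hydroxylase, were the lone genes seen in at least 3 libraries of 1 group and in none of another. Gsta3 had no count in the 4 cypermethrin non-stressed libraries, against 13 counts in 3 cypermethrin stressed libraries and 28 counts in 3 vehicle non-stressed libraries. Cyp4v3 had 24 counts in 3 cypermethrin stressed libraries, 20 of them in replicate 2, against none in the 4 vehicle stressed libraries. Neither passed the filter on low counts described below. The share of all genes with such a pattern was not counted, so neither gene is read as changed by an exposure.

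A filter on low counts, at about 10 counts in a library of median size in 4 libraries, left 20 of the 135 genes (14.8%) and 13224 of all genes (53.9%). The other 46 genes with a count had at most 2.49 CPM on average, and 31 of them had the majority of their counts in 1 library. Examples, chosen after their values were seen, are Gstm6, with 91.5% of 71 counts in vehicle stressed replicate 3, and Cyp27a1, the sterol 27-hydroxylase, with 75.3% of 85 counts in cypermethrin non-stressed replicate 3. Of the 20 tested genes, 0 had the majority of their counts in 1 library, and 12 had counts in all 16 libraries (60%, against 78.7% of all tested genes).

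Among the 20 tested genes, levels were compared per kilobase of merged exons. Glutathione transferases held the first 3 places. Gstp1, the pi class transferase, averaged 21.0 ± 14.9 CPM per kb (SD over 16 libraries), Gstm7 averaged 15.9 ± 7.47 and Gstm5 12.3 ± 7.54, both of the mu class. Cyp1b1 came next at 9.63 ± 5.15 CPM per kb, beside Gstm1 at 9.57 ± 5.13. These neighbours lie within 1 SD of each other, so their order is not resolved. Per kilobase, Gstp1 exceeded 88.9% and Cyp1b1 73.9% of the 18242 annotated genes with counts.

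The middle of the order held Gsto1, an omega class transferase, at 7.02 CPM per kb, Cyp20a1, a P450 without a settled substrate, at 5.32, and Gstz1, the zeta class transferase of tyrosine breakdown, at 5.13. Cyp4f16 of the fatty acid family had 4.71 CPM per kb, and Cyp7b1, the oxysterol 7-alpha-hydroxylase, had 3.52. Gstk1, the kappa class transferase, had 3.49 CPM per kb and Cyp2j6, of a subfamily that makes epoxides of arachidonic acid, had 2.85. The remaining 8 tested genes lay between 0.422 and 1.68 CPM per kb. They were Gstm4, Cyp39a1 (another oxysterol hydroxylase), Cyp2t4, Cyp2u1, Cyp46a1 (the neuronal cholesterol 24-hydroxylase), Cyp4x1, Cyp26b1 (a retinoic acid hydroxylase) and Cyp2d22. Over short stretches Gstp1 cannot be separated from Gstp2, since 33.7% of its 50-base windows also occur in transcripts of that gene, and the same holds for 18.9% of those of Gstm1 and 17.4% of those of Cyp4f16 with other genes. Gstz1, Gstm5, Gsto1, Cyp4x1 and Cyp2t4 overlap another gene of the table, and reads of such pairs may be mixed.

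**Figure D2:**
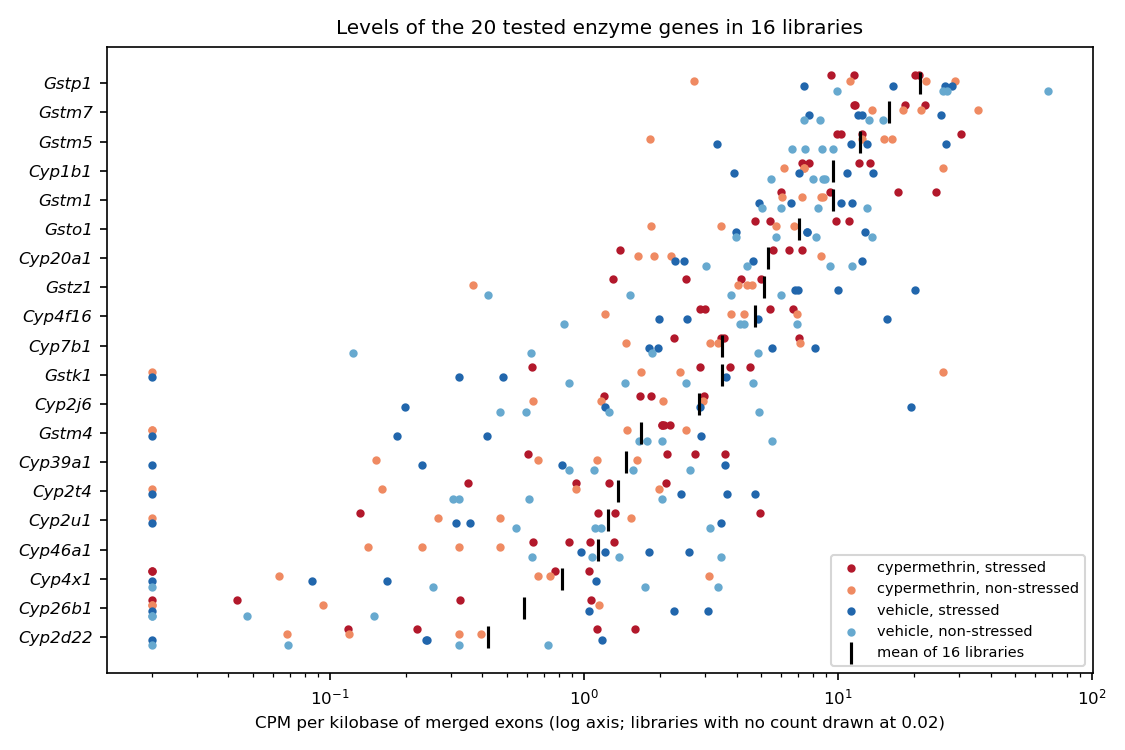
Level of each tested enzyme gene in each library, as CPM per kilobase of merged exons on a log axis, with libraries without a count drawn at 0.02 and the mean of 16 libraries as a bar. Means run from 0.422 for Cyp2d22 to 21.0 for Gstp1, and the libraries of the 4 groups intermingle for most genes.

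Cyp1b1 (chr17:79701537-79715061 on the minus strand, mm10) had counts in every library. It stood at 45.1, 42.2, 70.9 and 78.0 CPM in cypermethrin stressed libraries, at 42.9, 43.2, 151.7 and 36.0 in cypermethrin non-stressed ones, at 22.8, 80.5, 41.3 and 63.4 in vehicle stressed ones and at 51.2, 32.1, 46.7 and 52.0 in vehicle non-stressed ones. Cypermethrin non-stressed replicate 3 was far above the rest, and the other 15 libraries overlapped between groups. With cypermethrin, averaged over stress, the log2 difference from vehicle was 0.39 ± 0.31 (SE; 95% interval -0.25 to 1.02), with an adjusted p of 0.981 in edgeR's quasi-likelihood test. Without cypermethrin non-stressed replicate 3 it was 0.01 ± 0.27. For stress it was -0.01 ± 0.31 (interval -0.64 to 0.62), and 0.37 ± 0.27 without that library.

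Across the 16 libraries Cyp1b1 went with the summed level of brain endothelial markers. Pearson's r was 0.852 (permutation p = 0.0012, adjusted 0.0036 over 3 relations) and Spearman's rho was 0.609 (permutation p = 0.0137, adjusted 0.041). Without the 2 libraries farthest from the median marker sum r was 0.587, and without cypermethrin non-stressed replicate 3, which had the highest marker sum of 858 CPM, it was 0.575. The descriptions carry a library code of unstated meaning. Within codes r was 0.754 in the 7 libraries of the first and 0.88 in the 9 of the second. The second code holds cypermethrin non-stressed replicate 3, and r in that code without this library was not computed. With pericyte and meningeal fibroblast markers r was 0.576 (permutation p = 0.0435, adjusted 0.0652) and rho 0.356 (permutation p = 0.178), and r dropped to 0.168 without that same library, so this relation rests on it. With interneuron markers r was -0.0252 (permutation p = 0.976) and rho 0.00588 (permutation p = 0.994). Only these 3 marker lists were compared with Cyp1b1, so the relation is not shown to be particular to endothelial markers. Microglia and macrophage markers, which were not compared, also had their highest sum in cypermethrin non-stressed replicate 3 (449 CPM, median 134). The part of vascular RNA in the Cyp1b1 level was not tested.

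**Figure D3:**
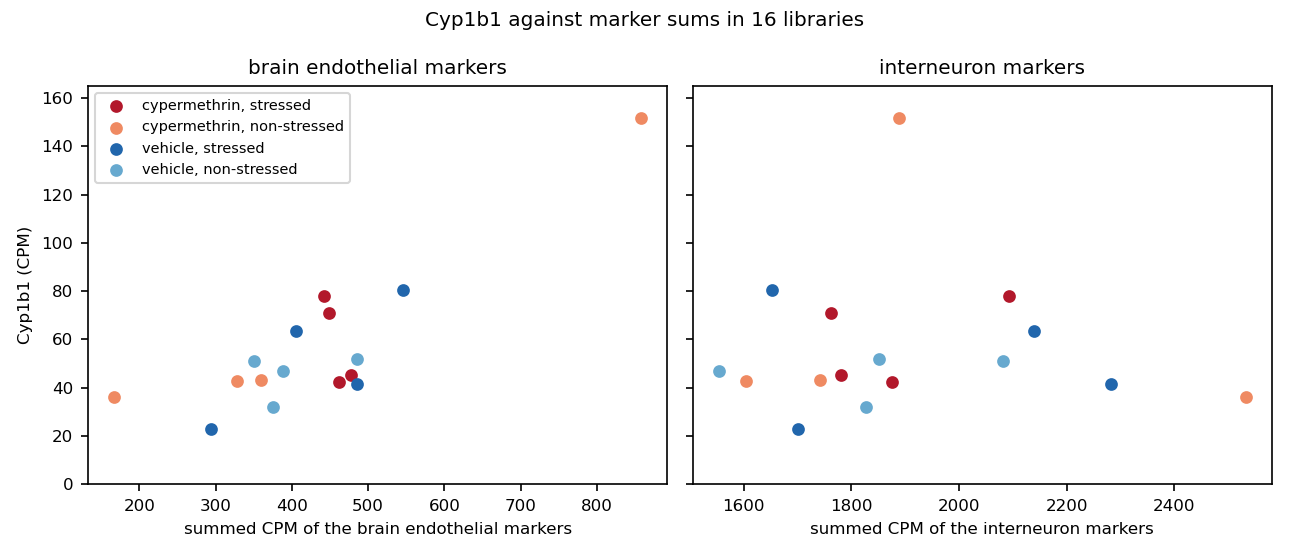
Cyp1b1 (CPM) against the summed CPM of 9 brain endothelial markers (left) and 12 interneuron markers (right) in 16 libraries, coloured by group. The library at 151.7 CPM also has the highest endothelial sum, and no such relation is seen with interneuron markers (r = -0.0252).

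The first question was whether the insecticide changed these genes. Of the 20 tested genes, 0 passed an adjusted p of 0.05 in edgeR's quasi-likelihood test for cypermethrin against vehicle, with or without stress or averaged over both. The background was 0% of 13224 genes in each case. At an unadjusted p under 0.05 stood 2 genes without stress (background 3.71%), 1 under stress (5.39%) and 1 for the average (4.59%), counts too small to read against such shares. DESeq2 and limma voom also called 0 of these genes in the 3 comparisons. For the average, 10 fitted differences were above 0 and 10 below; their median was -0.03 on the log2 scale, against 0.01 over all tested genes. The median SE was 0.66 for the enzyme genes and 0.38 over all tested genes, so the absence of calls does not show that these genes were unchanged, for large changes either.

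Cyp46a1 (chr12:108334381-108362234, plus strand) turns cholesterol over in neurons. It stood at 0.757, 1.54, 1.06 and 0.467 CPM in cypermethrin non-stressed libraries, against 11.5, 4.54, 3.53 and 2.06 CPM in vehicle non-stressed libraries. These groups did not overlap, which 2.52% of all tested genes also showed. The cypermethrin non-stressed values are only 3, 5, 4 and 1 counts, against 34, 17, 14 and 8 in vehicle non-stressed libraries. Under stress it stood at 4.33, 2.08, 2.87 and 3.49 CPM in cypermethrin libraries, against 8.56, 5.95, 3.21 and 4.01 CPM in vehicle libraries, and these overlap. The log2 difference was -2.43 ± 1.05 without stress (edgeR unadjusted p = 0.0288, adjusted p = 0.999) and -1.59 ± 0.72 averaged over stress (adjusted p = 0.981). Within library codes the average was -2.25 for the first, where cypermethrin non-stressed has 1 library, and -0.79 for the second.

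Gstm7 (chr3:107926334-107931817, minus strand), a mu class transferase, stood at 21.9, 29.0, 57.4 and 34.1 CPM in cypermethrin non-stressed libraries, against 21.2, 13.6, 24.2 and 11.8 CPM in vehicle non-stressed libraries. Only the lowest cypermethrin library fell within the vehicle range. The log2 difference was 1.01 ± 0.49 (edgeR unadjusted p = 0.0486, adjusted p = 0.999). Within library codes it was 0.34 for the first, where cypermethrin non-stressed has 1 library, and 1.16 for the second. Gstp1 stood at 44.9, 17.3, 34.5 and 4.20 CPM in cypermethrin non-stressed libraries, against 104.0, 41.7, 40.4 and 15.4 CPM in vehicle non-stressed libraries. Its log2 difference of -0.98 ± 0.59 was -0.35 without vehicle non-stressed replicate 1, the library at 104.0 CPM. Gstk1 differed by 1.52 ± 0.92 averaged over stress and by 0.30 without cypermethrin non-stressed replicate 4, which had 38.3 CPM against at most 6.81 in the others. Averaged over stress, 0 of the 20 genes had all 8 cypermethrin libraries on one side of all 8 vehicle libraries (background 0.0302%). Over these libraries Gstm7 differed by 0.57 ± 0.34 and Gstz1 by -0.78 ± 0.47.

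Under stress the smallest p belonged to Gstz1 (chr12:87147165-87164723, plus strand), which overlaps Pomt2 and Gm6566, so reads of these genes may be mixed. It stood at 6.65, 12.9, 21.2 and 25.4 CPM in cypermethrin stressed libraries, against 102.3, 35.4, 50.9 and 34.7 CPM in vehicle stressed libraries. The groups did not overlap (background 3.04%), and the highest value belonged to the library labelled vehicle stressed replicate 1. The log2 difference was -1.75 ± 0.68 (edgeR unadjusted p = 0.0162, adjusted p = 0.902) and -1.28 without that library. Within library codes it was -2.81 for the first, where that library is 1 of 2 in its group, and -0.88 for the second. Cyp2j6 stood at 4.33, 6.00, 6.62 and 10.7 CPM in cypermethrin stressed libraries, against 70.4, 4.38, 0.712 and 10.4 CPM in vehicle stressed libraries. Its log2 difference of -1.62 ± 0.97 became 0.41 without the library labelled vehicle stressed replicate 1, at 70.4 CPM. Gstm1 differed by 0.78 ± 0.60 and by 0.38 without cypermethrin stressed replicate 2, at 36.0 CPM. Cyp26b1, whose values follow with the stress comparisons, differed by -2.13 under stress (95% interval -5.21 to 0.95) and by 2.49 ± 1.66 without it, where leaving out cypermethrin non-stressed replicate 2 gave -0.45.

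**Figure D4:**
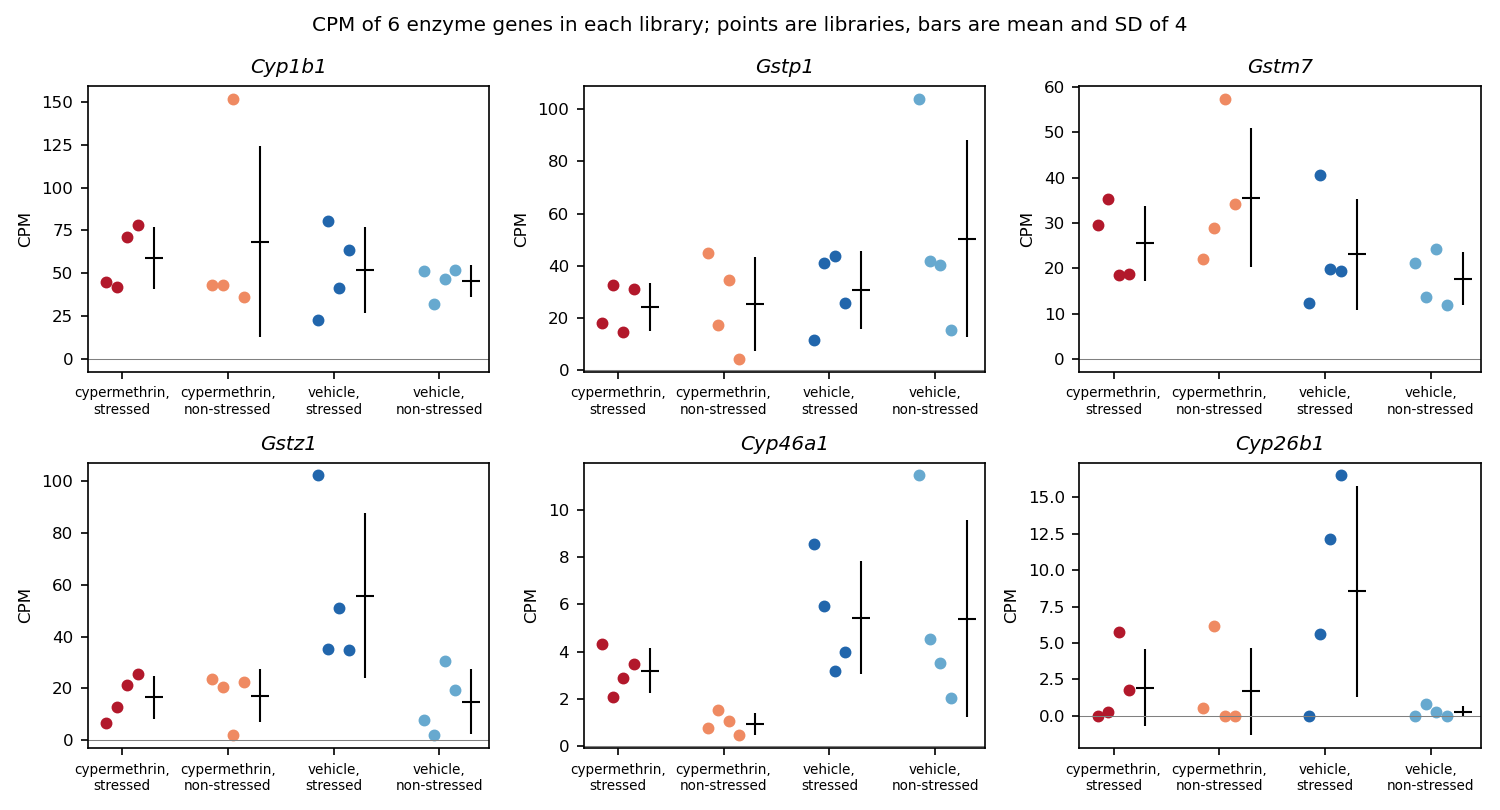
CPM of 6 enzyme genes in each library, in the order cypermethrin stressed, cypermethrin non-stressed, vehicle stressed and vehicle non-stressed; points are libraries and the bar is the mean with SD (n = 4). Single libraries lie far from their group for Cyp1b1 (151.7 CPM) and Gstz1 (102.3 CPM).

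The next question was whether restraint of the dam changed these genes. edgeR called 0 of 20 with vehicle, with cypermethrin and averaged over both (background 0% in each), and DESeq2 and limma voom also called 0. At an unadjusted p under 0.05 stood 2 genes with vehicle (background 5.08%), 0 with cypermethrin (4.31%) and 1 for the average (5.13%). These comparisons use the same libraries as those of cypermethrin above. Averaged over cypermethrin, 14 fitted differences were above 0 and 6 below, where 50% of all tested genes were above 0. Their median was 0.46 on the log2 scale, against 0.00 over all tested genes, and their median SE was 0.66. The 14 include Cyp26b1, which passed the filter on low counts only through vehicle stressed libraries. Cyp2j6 is also among them and was -0.080 without the library labelled vehicle stressed replicate 1.

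Gstz1 in vehicle stressed libraries, given above, did not overlap with 7.74, 2.14, 30.5 and 19.3 CPM in vehicle non-stressed libraries (background 2.9%). The log2 difference was 1.89 ± 0.69 (edgeR unadjusted p = 0.0102, adjusted p = 0.965) and 1.43 when the library labelled vehicle stressed replicate 1 was left out. Within library codes it was 3.80 for the first, where that library is 1 of 2 in its group, and 0.78 for the second. With cypermethrin the Gstz1 groups overlapped, since cypermethrin non-stressed libraries had 23.5, 20.7, 1.86 and 22.4 CPM.

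Cyp26b1 (chr6:84571414-84593908, minus strand), which clears retinoic acid, had counts in 10 of 16 libraries. It stood at 0, 5.64, 12.1 and 16.5 CPM in vehicle stressed libraries, against 0, 0.801, 0.252 and 0 CPM in vehicle non-stressed libraries. The library without a count in the stressed group is the one labelled replicate 1, and the other 3 were above all non-stressed libraries. The log2 difference was 4.83 ± 1.75 (edgeR unadjusted p = 0.0104, adjusted p = 0.965). Vehicle stressed replicates 2, 3 and 4 had 18, 34 and 70 counts. Cypermethrin stressed replicate 3 had 26, cypermethrin non-stressed replicate 2 had 20, and no other library reached 10. Cyp26b1 thus passed the filter on low counts only through the vehicle stressed group, where it was high. Its p-values are therefore no support for a difference. With cypermethrin, stressed libraries had 0, 0.231, 5.74 and 1.74 CPM, against 0.505, 6.17, 0 and 0 CPM in non-stressed libraries, which overlap. Averaged over cypermethrin the log2 difference was 2.52 ± 1.12 (edgeR adjusted p = 0.960). Within library codes it was 0.45 for the first, where cypermethrin non-stressed has 1 library, and 3.65 for the second.

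With cypermethrin, Cyp46a1 did not overlap between stressed and non-stressed libraries (background 2.58%), at the values given above. The non-stressed values are the same 1 to 5 counts, and the log2 difference was 1.68 ± 1.04 (edgeR adjusted p = 0.997). Gstm1 differed by 0.89 ± 0.61 and by 0.50 without cypermethrin stressed replicate 2. Cyp2u1, a fatty acid hydroxylase of brain, differed by 1.70 ± 1.22 and by 0.58 without cypermethrin stressed replicate 1, its highest library. Gsto1 differed by 0.80 ± 0.63. With vehicle, Cyp2j6 differed by 1.70 ± 0.97 and by -0.33 when the library labelled vehicle stressed replicate 1 was left out, and Cyp7b1 by 1.20 ± 0.92 and by 0.71 without it. Averaged over cypermethrin, Cyp4x1 differed by -1.60 ± 1.06.

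**Figure D5:**
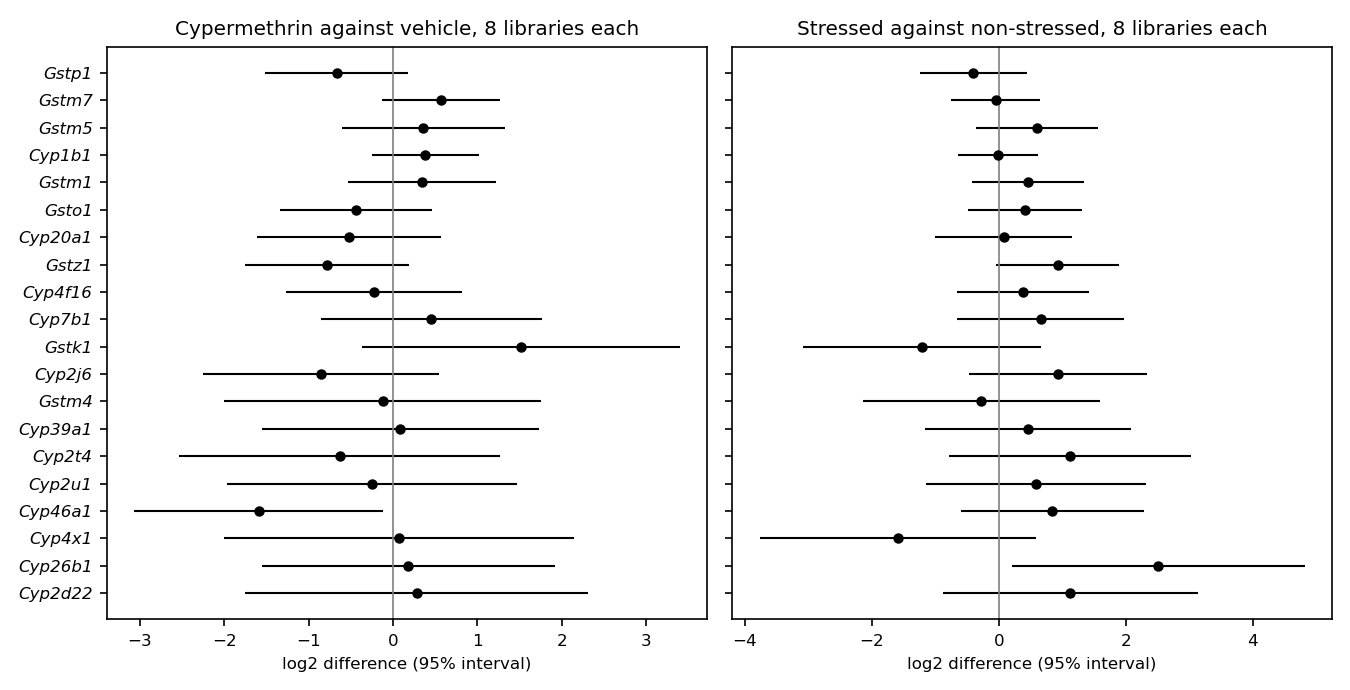
Log2 difference with 95% interval for the 20 tested enzyme genes, for cypermethrin against vehicle (left) and stressed against non-stressed (right), 8 libraries each, from edgeR. Most intervals include 0. Those of Cyp46a1 on the left (-1.59) and Cyp26b1 on the right (2.52) do not, before adjustment over all genes. Cyp26b1 passed the filter on low counts only through its vehicle stressed libraries.

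Both exposures together were set against neither. edgeR called 0 of 20 genes (background 0%), 0 stood at an unadjusted p under 0.05 (background 1.49%), and DESeq2 and limma voom also called 0. Gstm5 stood at 39.3, 13.2, 15.9 and 12.7 CPM in cypermethrin stressed libraries, against 8.42, 12.3, 11.1 and 9.52 CPM in vehicle non-stressed libraries. These groups did not overlap (background 2.62%), with a log2 difference of 0.97 ± 0.67, and of 0.43 without cypermethrin stressed replicate 1. Gstp1 differed by -1.06 ± 0.59 and by -0.43 without vehicle non-stressed replicate 1, Cyp26b1 by 2.70 ± 1.65 and Gstm1 by 0.81 ± 0.60. The interaction, that is, whether stress altered the difference made by cypermethrin, also had 0 called genes by all 3 tools (background 0%) and 1 at an unadjusted p under 0.05 (4.7%), Cyp26b1 at -4.62 ± 2.24 (edgeR unadjusted p = 0.0485). That value was -1.68 without cypermethrin non-stressed replicate 2, and Cyp26b1 passed the filter only through its vehicle stressed libraries. For Gstz1 it was -1.93 ± 0.95, for Gstm4 2.58 ± 1.84 and for Cyp2u1 2.22 ± 1.70.

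Of the genes that work with these enzymes, edgeR called 0 for cypermethrin averaged over stress, and the counts at an unadjusted p under 0.05 stand beside 4.59% of all tested genes. Of 21 genes of electron transfer to P450s and haem supply, all 21 were tested, with 1 at an unadjusted p under 0.05, Cyb5r3, a cytochrome b5 reductase, at 0.42 ± 0.20. For Cyb5r3 the difference was 0.82 ± 0.29 without stress and 0.02 ± 0.29 under stress (interaction -0.81 ± 0.41, edgeR unadjusted p = 0.0568). Cyb5r3 averaged 226 ± 49.0 and 233 ± 146 CPM in cypermethrin stressed and non-stressed libraries, against 224 ± 24.8 and 132 ± 18.3 CPM in vehicle stressed and non-stressed libraries (SD, n = 4 each). Without cypermethrin non-stressed replicate 3 its averaged difference was 0.18 ± 0.17. Of 20 receptors and regulators 16 were tested, 2 of them at an unadjusted p under 0.05, and Rxra, the retinoid X receptor that pairs with the pregnane X and androstane receptors, had the smallest at -1.27 ± 0.48. It averaged 7.62 ± 1.99 and 7.28 ± 3.90 CPM in cypermethrin stressed and non-stressed libraries, against 18.7 ± 17.0 and 17.4 ± 4.01 CPM in vehicle stressed and non-stressed libraries (SD, n = 4 each; edgeR adjusted p = 0.981). Of 20 genes of glutathione synthesis and recycling 19 were tested, with 14 fitted differences above 0 and 5 below (51.1% above over all tested genes). These counts were the same without cypermethrin non-stressed replicate 3. Under stress alone they were 10 and 9, and without stress 13 and 6. Averaged over stress they were 10 and 11 for electron transfer and haem supply and 6 and 10 for receptors and regulators. For other conjugation and hydrolysis enzymes they were 5 and 10, for alcohol and aldehyde dehydrogenases 5 and 7, and for efflux transporters 4 and 2. Cypermethrin non-stressed replicate 3 had the highest sum of the glutathione list, 997 CPM against a median of 629. That library also had the highest endothelial, pericyte and macrophage sums. Pericyte and meningeal fibroblast markers had 10 fitted differences above 0 and 2 below in the same comparison, and 8 and 4 without that library; their part in the result was not tested. In the glutathione list the smallest p belonged to Gclm, the modifier subunit of the enzyme that starts glutathione synthesis. Its difference was 0.82 ± 0.36 (0.85 ± 0.37 without cypermethrin non-stressed replicate 3). Gclm averaged 37.1 ± 32.8 and 41.4 ± 9.94 CPM in cypermethrin stressed and non-stressed libraries. In vehicle stressed and non-stressed libraries it averaged 22.4 ± 9.78 and 21.9 ± 4.56 CPM (SD, n = 4 each). Under stress its edgeR unadjusted p was 0.167, and no value without a cypermethrin stressed library is given. Of 38 other conjugation and hydrolysis enzymes 15 were tested, with Papss2, which makes the sulfate donor, at -1.30 ± 0.58. Of 21 alcohol and aldehyde dehydrogenases 12 were tested, with Aldh5a1 at 0.31 ± 0.29, and of 10 efflux transporters 6 were tested, with Abcc5 at 0.13 ± 0.17. Ahr and Por, the reductase that feeds electrons to P450s, were looked up after their values were known. Ahr averaged 13.6 ± 8.68 CPM and Por 24.7 ± 6.51 CPM over the 16 libraries. The genes of the pregnane X receptor (Nr1i2) and the constitutive androstane receptor (Nr1i3), also looked up afterwards, averaged 1.24 ± 3.19 and 0.986 ± 2.26 CPM.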

How the data were processed

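The deposited table holds raw gene counts for 16 libraries of total RNA. Reads were aligned with STAR 2.5 to mm10, per the submitters' processing notes; for the counter, its annotation and its use of strand, the sources used here give nothing. Per the labels' protocols, RNA came from laser-captured cells of fixed sections, and libraries were made with a kit for low input. No molecular identifiers are stated, so floors and intervals cover counting error only. The labels name 4 litters per group, and embryos are the replicates.

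Counts were filtered with edgeR's filterByExpr (minimum count 10), scaled by TMM and fitted with edgeR 4.0.16's quasi-likelihood test in R 4.3.3 over all 4 groups, with Benjamini-Hochberg adjustment over 13224 genes in each of 8 comparisons. Adjusted p under 0.05 was a call. DESeq2 1.42.0 and limma 3.58.1 (voom) were alternatives. The model was checked on simulated data. Gene lengths and positions are from GENCODE on mm10. Total counts were 2291283 to 4324129.

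The enzyme genes and lists were chosen with earlier results of these data known. Named genes were the 12 highest per kilobase, every tested gene, the 4 smallest p-values per comparison, genes seen in 3 libraries of 1 group and in none of another, and 5 classical inducible genes. Of each list, the gene with the smallest p was named.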

Additional observations from a re-analysis of the deposited data

Results flagged for a closer look

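In 80 groups of 4 libraries (20 tested genes in 4 groups), 5 held a library far from the other 3. The rule was Dixon's test on log2 CPM at its 95% critical value. Chance gives about 1 in 20 for normally distributed values. The share over all tested genes was not counted, so these genes are not shown to be unusual. Cyp1b1 was at 151.7 CPM in cypermethrin non-stressed replicate 3, against 36.0 to 43.2 CPM in the other 3 libraries of its group. The same library had 1.86 CPM of Gstz1, against 20.7 to 23.5 CPM. Gstm5 was at 2.34 CPM in cypermethrin non-stressed replicate 4, against 15.9 to 21.0 CPM. Cyp20a1 was at 3.18 CPM in cypermethrin stressed replicate 1, against 12.7 to 16.6 CPM. Gstm4 was at 9.43 CPM in vehicle non-stressed replicate 1, against 2.83 to 3.47 CPM.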

How the results depend on the processing

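No enzyme gene was called in any of 205 settings over the 8 comparisons, and the smallest adjusted p was 0.0656. Over all genes, DESeq2 called 2 for cypermethrin averaged over stress, where edgeR called 0. Among the 7 libraries of the first code alone, counts of called genes were 2 for cypermethrin without stress, 57 under stress and 14 averaged, 45 for stress with vehicle, 3 with cypermethrin and 7 averaged, 13 for both exposures and 9 for the interaction. Cypermethrin non-stressed has 1 library there, and the library labelled vehicle stressed replicate 1 is 1 of 2 in its group. With that library left out as well, an alternative added after seeing the data, the counts in the same order were 2, 9, 7, 6, 3, 1, 30 and 3; the cause was not tested. Leaving out 1 library gave 0 to 1 called genes for cypermethrin under stress and averaged (1 without vehicle stressed replicate 3), and 0 to 0 in the other comparisons. Of 783 settings for 32 named differences 770 kept the sign and 13 reversed, and the cause was not tested. Cyp26b1 reversed for cypermethrin without stress to -0.45 without cypermethrin non-stressed replicate 2 (range over libraries left out -0.45 to 3.78), and for both exposures to -1.51 in the first code (-1.52 with the library labelled vehicle stressed replicate 1 also left out). With that library left out of the first code, Cyp2j6 for cypermethrin under stress was 0.23 and Gstz1 for cypermethrin averaged was 0.20. Cyp2j6 reversed without the library labelled vehicle stressed replicate 1 and in the second code: for cypermethrin under stress to 0.41 and 0.62 (range -2.03 to 0.41), for stress with vehicle to -0.33 and -0.98 (range -0.33 to 2.91), and for stress averaged to -0.080 and -0.38 (range -0.080 to 1.54). In the second code Gstm1 reversed to -0.23 for cypermethrin under stress and Cyp7b1 to -0.83 for stress with vehicle. Requiring 3 counts in a library left 59 of the 66 enzyme genes with a count. The filter on low counts left 46 detected genes without a test in the main edgeR fit. No paired analysis was possible because the labels give the groups no shared replicate numbers.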
